A study of Mus musculus with 20 samples.

Results

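Gene models named Gm followed by a number are mouse genes that annotation predicted and that nobody has yet given a descriptive name. All rows of the study's 2 gene tables whose symbol is Gm followed only by digits were taken, which gave 231 of the 8114 genes listed in either table: 180 of 7543 in the table of ribosome-bound mRNA and 214 of 7917 in the table of total RNA. The question was which of them were found on ribosomes, which only in total RNA, and how each changed while oocytes resumed meiosis.

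Provisional names cover several kinds of gene. A processed pseudogene is a copy of an mRNA that was reverse transcribed back into the genome, so its exonic sequence can be almost that of the gene it came from. An unprocessed pseudogene usually arose by duplication of a gene with its introns. Long non-coding RNAs have no annotated protein, and other Gm models are annotated as protein coding. In a full-grown oocyte transcription is largely silent, and meiotic maturation runs on stored mRNA that is moved onto or off ribosomes, so ribosome-bound and total RNA can change separately.

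The oocytes came from C57BL/6 females, 3 weeks old, that carried Zp3-Cre and the RiboTag allele, in which Cre switches on an HA tag on a ribosomal protein; Zp3 drives Cre in oocytes. Mice received 5 IU of PMSG, and 44 h later cumulus was stripped from the oocytes by pipetting in 1 µM cilostamide, which keeps them arrested in prophase I. Samples of 200 oocytes were taken at 0, 2, 4, 6 and 8 h after the drug was washed out, which the labels call prophase I, early, mid and late pro-metaphase I and metaphase I. At each time there were 2 samples of RNA pulled down with the tagged ribosomes and 2 of total RNA, 20 libraries in all, and every group shared the strain, the transgenes, the hormone and the drug. One label of the total RNA samples also describes them as bound to ribosomes; their titles and the design text were followed. The labels do not say whether the 2 samples of a time came from separate animals or cultures, so p-values measure only the spread between these samples.

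The deposited values are CPM, reads per gene scaled to a common library size, times a factor of each library, called scaled CPM here. If the smallest step between a library's values is 1 read, which was not established, libraries held 27571236 to 51714900 reads, and 282 to 533 reads lay behind a value of 10. Replicates of a group correlated at r = 0.949 to 0.974 over all genes and at 0.913 to 0.960 over the Gm members. Of 14 oocyte markers, 14 were listed on ribosomes and 13 in total RNA, and they summed to 27836 and 32102 at 8 h against 52906 and 63486 at 0 h on ribosomes, and to 18427 and 19632 at 8 h against 18481 and 19369 at 0 h in total RNA. Of 14 granulosa and cumulus markers 4 were listed on ribosomes (Cyp19a1, Fshr, Nr5a2 and Serpine2) and 6 in total RNA (the same with Inha and Inhba). Foxl2, Amh, Amhr2, Fst, Has2, Ptgs2, Tnfaip6 and Hsd17b1 were in neither table. The 4 summed to 524.1 and 529.1 at 8 h against 198.6 and 207.1 at 0 h on ribosomes. The 6 summed to 428.2 and 549.8 at 8 h against 324.4 and 388.9 at 0 h in total RNA. These sums cover different genes, and the part of each gene in them is not given. Cells of this kind were not counted. The part of these markers in the results was not tested. The first ribosome-bound replicate at 4 h stood apart from the other 9 ribosome-bound libraries, and the total RNA replicates at 8 h lay far from each other on a principal component. Fewer cells of a type and less RNA per cell cannot be told apart in such bulk samples.

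The sequences below show the features on which the results turn; all were read from the transcripts of GENCODE vM21, with coordinates on GRCm38 (mm10). The first set is an 80-base window, aligned between the transcripts, of 7 unprocessed pseudogenes that lie in a row on chromosome 6 and that all rose on ribosomes. The windows are chr6:130503496-130503575, chr6:130697896-130697975, chr6:130746140-130746219, chr6:130887457-130887536, chr6:131002460-131002539, chr6:131051423-131051502 and chr6:131181423-131181502 in the order of the lines, all on the minus strand. Capitals mark bases that differ from the commonest base of the 7 copies.
Gm38706: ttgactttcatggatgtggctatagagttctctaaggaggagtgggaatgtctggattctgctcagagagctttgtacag
Gm27013: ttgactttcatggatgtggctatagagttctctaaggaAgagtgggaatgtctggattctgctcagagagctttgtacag
Gm6600: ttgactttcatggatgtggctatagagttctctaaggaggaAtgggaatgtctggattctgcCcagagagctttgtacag
Gm33962: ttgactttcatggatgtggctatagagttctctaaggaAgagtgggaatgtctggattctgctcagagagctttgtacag
Gm44133: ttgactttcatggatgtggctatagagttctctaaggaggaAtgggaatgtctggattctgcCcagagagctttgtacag
Gm44134: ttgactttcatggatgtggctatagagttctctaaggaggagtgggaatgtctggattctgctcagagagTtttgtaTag
Gm5581: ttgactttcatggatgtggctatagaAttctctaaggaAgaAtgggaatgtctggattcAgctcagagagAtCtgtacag
This window was chosen as the stretch with the fewest differing positions among the 7 transcripts. Its 7 copies had the same base at 72 of their 80 positions. Over whole transcripts the 21 pairs of these genes were 84.4% to 98.1% identical, with a median of 88.8%.

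The second set shows why a pseudogene's value needs its source gene beside it. Each pair gives the Gm copy and the same 80 bases of the coding exon it resembles, with capitals at the bases that differ. Gm5593 (chr7:42105921-42106000, minus strand) is set beside Ccnb1, which encodes cyclin B1 (chr13:100779706-100779785, minus strand).
Gm5593: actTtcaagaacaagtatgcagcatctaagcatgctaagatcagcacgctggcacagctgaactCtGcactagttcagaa
Ccnb1: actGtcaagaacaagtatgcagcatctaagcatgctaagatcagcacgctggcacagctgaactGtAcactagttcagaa
Gm6382 (chrX:142210885-142210964, plus strand) is set beside Rbbp7, a histone-binding subunit of chromatin complexes (chrX:162769794-162769873, plus strand).
Gm6382: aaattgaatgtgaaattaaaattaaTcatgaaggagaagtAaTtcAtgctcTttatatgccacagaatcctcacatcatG
Rbbp7: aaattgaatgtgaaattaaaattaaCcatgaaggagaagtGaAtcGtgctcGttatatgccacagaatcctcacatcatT
Gm5946 (chrX:150223145-150223224, minus strand) is set beside Bmi1, a Polycomb protein (chr2:18682223-18682302, plus strand).
Gm5946: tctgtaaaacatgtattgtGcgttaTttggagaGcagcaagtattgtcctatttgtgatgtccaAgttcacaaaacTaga
Bmi1: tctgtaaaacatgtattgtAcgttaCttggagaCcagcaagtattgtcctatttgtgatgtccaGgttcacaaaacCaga
Gm10925, which the annotation classes as an unprocessed pseudogene, is a nuclear copy of the mitochondrial ATP synthase gene mt-Atp6 (chr1:24614572-24614651, minus strand, against chrM:7927-8006, plus strand). Its window had no differing base.
Gm10925: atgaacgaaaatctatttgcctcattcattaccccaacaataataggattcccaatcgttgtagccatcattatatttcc
mt-Atp6: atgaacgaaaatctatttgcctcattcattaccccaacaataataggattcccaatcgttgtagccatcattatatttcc
Each of these windows was chosen to hold the most differing bases, up to 6, so its count is not typical of the whole copy. The windows differed at 3, 6, 5 and 0 of 80 bases. How reads that match both copies were assigned is not given in the sources used here, and the values of such copies are therefore uncertain.

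Of the 231 members, 163 were in both tables, 17 only in the ribosome-bound table and 51 only in the total RNA table. These shares, 7.4% and 22.1%, compare with 2.3% and 6.6% of the 7883 other genes. Among the 191 genes with symbols ending in Rik, another provisional kind of name, 5 were in the ribosome-bound table alone and 24 in the total RNA table alone. Of 23 genes with symbols ending in -ps and digits, names given to pseudogenes, 4 (17.4%) were in the ribosome-bound table alone and 3 (13%) in the total RNA table alone. Every gene in a table reached 10 in at least 1 library on ribosomes and in at least 2 in total RNA, with a lowest maximum of 10.33 on ribosomes and 10.63 in total RNA. The value of a member missing from a table is unknown, and its absence does not show that it was at 0. The members of a single table were mostly near it: the 17 had means of 6.7 to 15.8 with a median of 9.66, and the 51 had means of 6.6 to 35.5 with a median of 11.3 and only 4 at 20 or more.

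The members were divided by annotation class. By gene ID, 227 of 231 members matched GENCODE vM21, and they were 92 long non-coding genes, 73 processed pseudogenes, 45 coding genes, 16 unprocessed pseudogenes and 1 miRNA gene. None of the 92 long non-coding genes was in the ribosome-bound table alone, 31 were in total RNA alone and 61 were in both. Of the 73 processed pseudogenes, 13 were on ribosomes alone, 10 in total RNA alone and 50 in both. Of the 45 coding members 2 were on ribosomes alone, 3 in total RNA alone and 40 in both, and the 16 unprocessed pseudogenes divided as 1, 7 and 8. Of those 7, 4 are neighbouring copies of mitochondrial genes, described below. By now 23 members carry another name in GENCODE or RefSeq, such as Elobl for Gm15698, Ftdc1 for Gm813 and Hectd4 for Gm15800. The exons of 30 members overlap another gene's, and 78 closely match a transcript from elsewhere in the genome, 57 of them processed pseudogenes. Whether the libraries kept strand is not given in the sources used here, which leaves overlapping genes uncertain too.

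**Figure D1:**
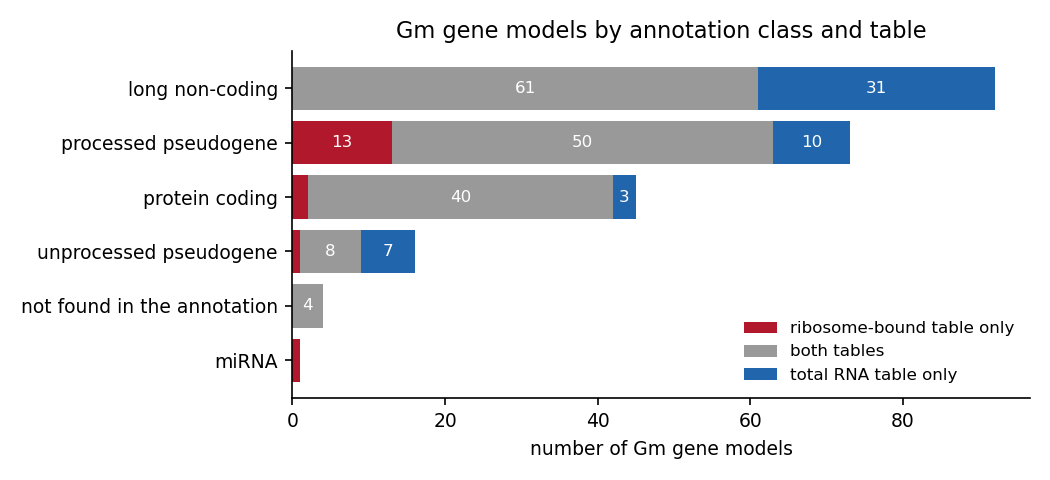
Number of Gm members (horizontal bars, counts of genes) in each annotation class, divided by the table that lists them. Long non-coding genes had 0 members in the ribosome-bound table alone and 31 in total RNA alone, while processed pseudogenes had 13 and 10.

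Of the members in total RNA alone, those with the highest means include copies of mitochondrial genes. Gm29216, Gm10925, Gm28439 and Gm28661 are 4 neighbouring copies of mitochondrial genes at chr1:24611535-24616197, 99.8% to 100% identical to mt-Co1, mt-Atp6, mt-Nd4 and mt-Co2. Gm29216 had the highest mean of the 51, 35.5, with a range of 29.7 to 43.8 over the 10 libraries, and mt-Co1 itself had 821.5 to 1260 in total RNA. Gm10925 had 18.3 to 32.9 while mt-Atp6 was listed lower, at 9.73 to 17.5, although the windows printed above are the same. Gm14641, a long non-coding gene, had 115.8 in 1 library, the first at 6 h, and 12.5 to 19.2 in the other 9. Gm11413 had 14 to 22.5. Gm13375 reached 48.6 in the first 8 h library, and its other 9 values ran from 6.42 to 23.3. The 5 members that passed the test in total RNA at 8 h, described below, were all in both tables.

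Most members were low. Their median mean was 18.1 on ribosomes and 19.9 in total RNA, against 42.8 and 44.5 for all listed genes. On ribosomes 13 members had means of 100 or more, and in total RNA 21 did. The highest was Gm15698 (Elobl, related to elongin B), with means of 4222 on ribosomes and 4044 in total RNA. Together the members held 1.28% ± 0.031 of the ribosome-bound signal at 0 h, 1.51% ± 0.016 at 2 h, 1.48% ± 0.030 at 4 h, 1.36% ± 0.072 at 6 h and 1.23% ± 0.098 at 8 h (SD, n = 2 each), highest at 2 and 4 h. They held 1.52% ± 0.12 of total RNA at 8 h and 1.62% ± 0.011 at 0 h (SD, n = 2 each). Within the ribosome-bound signal coding members held 0.783% at 0 h, 0.951% at 2 h, 0.915% at 4 h, 0.734% at 6 h and 0.540% at 8 h. Long non-coding members held 0.502% ± 0.026 at 8 h and 0.338% ± 0.016 at 0 h, but without Gm1965, described below, the other 60 held 0.232% ± 0.018 at 8 h and 0.251% ± 0.0065 at 0 h (SD, n = 2 each). Without Gm15698 the members' share of the ribosome-bound signal was 0.936% at 8 h and 0.880% at 0 h.

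Ribosome-bound and total levels were set beside each other for the 163 members in both tables, as a description, since the tables were scaled separately. On a log2 scale on which the median of all genes in both tables was set to 0, the members had a median of -0.23 at 0 h. Long non-coding members stood at -0.58, with 46 of 61 below 0, and unprocessed pseudogenes at -0.75, with 7 of 8 below 0. Processed pseudogenes stood at -0.01 and coding members at 0.11. At 8 h the long non-coding median was -0.33, with 44 of 61 below 0, and that of unprocessed pseudogenes was 0.97, with 1 of 8 below 0. Members low on ribosomes relative to total RNA at 0 h included Gm44796, with 47.8 and 26.9 on ribosomes and 144.9 and 134.2 in total RNA, and Gm15476, with 6.6 and 2.48 on ribosomes and 30.3 and 23.7 in total RNA. At the other end stood Gm5514, a copy of the lactate dehydrogenase gene Ldhb, with 93.8 and 158.9 on ribosomes and 31.4 and 20.9 in total RNA. In each of these the libraries of one kind were all above those of the other.

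The course on ribosomes was tested against 0 h with limma on log2(value + 1), with all 5 times in one model and p-values adjusted over the whole table by Benjamini-Hochberg at 0.05; folds on this scale understate changes of low genes. At 2 h 0 of 180 members passed, with 21 at an unadjusted p under 0.05, where 1.47% of all genes passed, 0.729% higher and 0.742% lower; without the first 0 h replicate 4 members did. At 4 h 14 passed, 13 higher and 1 lower, against a background of 15.7%, of which 9.16% was higher and 6.56% lower. This count fell to 6 without the first 4 h replicate, the library that stood apart. At 6 h 38 passed, 29 higher and 9 lower, against 27.9% (14.6% higher and 13.3% lower), and 17 or 16 did when the first or second 6 h replicate was left out. At 8 h 63 passed, 33 higher and 30 lower, against 42.1% (20.2% higher and 21.8% lower), and 37 did without the second 8 h replicate. The members' share of 35% was below the background, and their median log2 change was 0.06, against -0.06 for all genes.

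In total RNA 0 of 214 members passed at 2 h and 0 at 4 h, where 0% of all genes passed, with 5 members at an unadjusted p under 0.05 each time. At 6 h 1 passed, Gm26917, higher, a call lost when any of its 4 libraries was left out, against 0.202% of all genes (0.177% higher and 0.0253% lower), and at 8 h 5 passed, 1 higher and 4 lower, against 3.97% (0.947% higher and 3.02% lower). That last count was 2 without the first 0 h replicate. A further test asked whether the change on ribosomes at 8 h went beyond that in total RNA, as an interaction over all 20 libraries; 27 of 163 members passed, 19 with a more positive change on ribosomes and 8 with a more negative one, against 21.0% of all genes (11.6% and 9.43%). Without the second ribosome-bound 8 h replicate 17 passed.

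On ribosomes at 8 h the counts were also taken by class, with no test between classes. Of all genes 42.1% passed there, 20.2% higher and 21.8% lower. Of unprocessed pseudogenes 8 of 9 passed, all higher, with a median log2 change of 1.72. Of coding members 22 of 42 passed, 9 higher and 13 lower, with a median of -0.19. The coding count was lower whenever a ribosome-bound library of 0 h or 8 h was left out. Of processed pseudogenes 22 of 63 passed, 10 higher and 12 lower, with a median of 0.12. All 22 were among the 45 copies, described below, that closely match a coding gene of the same table and can share reads with it. Of long non-coding members 9 of 61 passed, 5 higher and 4 lower, with a median of 0.11, and leaving out 1 library moved this count between 4 and 14. The processed pseudogene count ran from 11 to 22 under the same procedure and the unprocessed from 6 to 8.

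**Figure D2:**
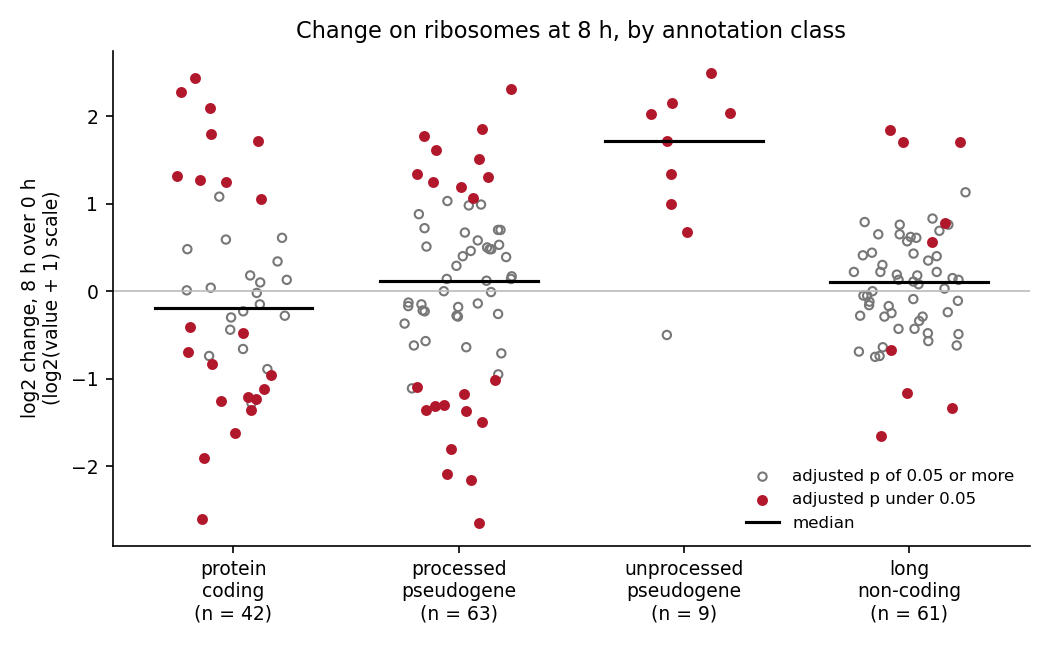
Log2 change on ribosomes of each Gm member at 8 h over 0 h (log2(value + 1) scale), by annotation class; filled points passed the adjusted p of 0.05 and bars are medians. The 8 filled unprocessed pseudogenes are all above 0, while the other classes have filled points on both sides.

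The unprocessed pseudogenes that rose lie almost all in one place. Gm38706, Gm27013, Gm6600, Gm33962, Gm44133, Gm44134 and Gm5581 occupy 0.70 Mb at chr6:130483189-131182379 on the minus strand, the run whose windows are printed first above, and 7 of 7 rose on ribosomes at 8 h by log2 1.00 to 2.49. The run was picked out after its values were seen. Their closest coding transcripts belong to zinc finger genes, Zfp735 and Zfp616, and to B020011L13Rik. The annotation calls them pseudogenes, but the longest open reading frames of their transcripts span 28 to 842 codons, with 842 in Gm38706, 806 in Gm33962 and 746 in Gm5581.

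Gm33962 had ribosome-bound values of 14.5 and 10.4 at 0 h, 17.3 and 15 at 2 h, 37.2 and 34.6 at 4 h, 69.8 and 67.9 at 6 h, and 70.1 and 77.2 at 8 h. Both libraries of each time from 4 h on were above every earlier one. Its log2 change on ribosomes at 8 h was 2.49 ± 0.27 (SE; limma, adjusted p = 1.98e-06). In total RNA it had 26.5 and 34.4 at 8 h and 30.0 and 29.3 at 0 h, which overlap (log2 change 0.02, adjusted p = 0.977). The change on ribosomes exceeded that in total RNA by 2.46 ± 0.37 on the log2 scale (adjusted p = 4.03e-05).

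Gm5581 had 37.3 and 36.3 on ribosomes at 8 h, against 9.14 and 6.17 at 0 h (log2 change 2.15 ± 0.37, adjusted p = 0.000171). Gm44134 had 28.5 and 32.7 at 8 h, against 7.0 and 6.35 at 0 h (2.04 ± 0.39, adjusted p = 0.000478). Gm6600 had 60.8 and 77.2 at 8 h, against 22.7 and 17.7 at 0 h (1.72 ± 0.26, adjusted p = 6.41e-05). In these 3 the 8 h libraries were all above the 0 h ones, and the changes beyond total RNA were 2.29, 2.46 and 1.79. Gm27013, listed on ribosomes alone, had 13.1 and 12.3 at 8 h, against 2.92 and 1.91 at 0 h (2.02 ± 0.53, adjusted p = 0.00555).

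Gm44133 had 39.7 and 44.7 on ribosomes at 8 h, against 21.6 and 11.9 at 0 h (1.34 ± 0.32, adjusted p = 0.00267). Its change beyond total RNA, 1.36, was lost without the second ribosome-bound 8 h replicate (adjusted p = 0.0668), the second ribosome-bound 0 h one (0.107), the first total 8 h one (0.0712) or the first total 0 h one (0.0549). Gm38706 had 19.8 and 28.0 at 8 h, against 12.2 and 10.5 at 0 h (1.00 ± 0.36, adjusted p = 0.0339), the smallest rise of the run. It no longer passed without the second 8 h replicate (0.76, adjusted p = 0.23), the first 0 h replicate (1.10, 0.0562) or the second 0 h replicate (0.90, 0.115). In total RNA the log2 changes at 8 h of the 6 listed genes of the run lay between -0.42 (Gm44134) and 0.02 (Gm33962), and 0 of 6 passed in limma, with 0 of 6 at an unadjusted p under 0.05.

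**Figure D3:**
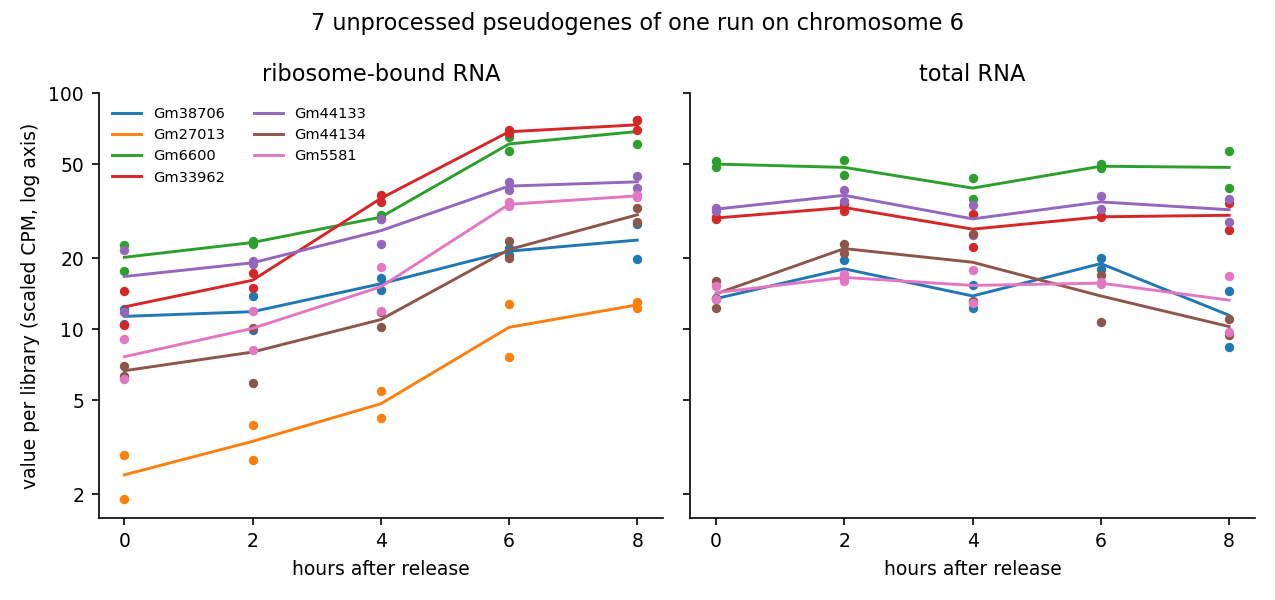
Scaled CPM of the 7 chromosome 6 pseudogenes (log axis) by hours after release, on ribosomes (left) and in total RNA (right); points are libraries and lines join the means of 2. The ribosome-bound lines climb between 2 and 6 h, with Gm33962 at 17.3 and 15 at 2 h and 69.8 and 67.9 at 6 h, while the total RNA points at 8 h lie near those at 0 h.

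Related coding genes rose too. Gm29106 and Gm7145 are coding members on chromosome 1 whose closest named transcript is B020011L13Rik. Gm29106 had 26.3 and 27.7 on ribosomes at 8 h, against 8.33 and 3.62 at 0 h (log2 change 2.09 ± 0.43, adjusted p = 0.000877). Gm7145, chosen after its values were seen, had 31.7 and 30.1 at 8 h, against 8.54 and 7.84 at 0 h (1.80 ± 0.35, adjusted p = 0.000551). Neither gene's 8 h libraries overlapped its 0 h ones. The named relatives Zfp735, Zfp616 and B020011L13Rik changed by 1.95, 2.21 and 1.75 on ribosomes and by 0.04, -0.05 and -0.19 in total RNA, where none passed. Because the copies resemble each other, how far their values share reads was not tested. Of the other unprocessed pseudogenes on ribosomes, Gm11545, at a higher level, had 204.1 and 192.0 at 8 h, against 143.8 and 105.7 at 0 h (0.68 ± 0.19, adjusted p = 0.00871). This was lost without the first 8 h replicate (0.64, 0.0555) or the second 0 h replicate (0.46, 0.095). Gm8801 had a log2 change of -0.50 and did not pass.

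Processed pseudogenes mostly moved with their source genes. Of the 73, 54 were at least 95% identical to a coding transcript over more than 50% of their length; 47 of these were on ribosomes, and 45 had the source gene in the table too. At 8 h 22 of the 45 pseudogenes and 32 of the 45 pairs' coding genes passed, against 42.1% of all genes. In 21 pairs both passed, and 21 of 21 went the same way. In 11 pairs only the coding gene passed and in 1 only the pseudogene. Gm9791, which did not pass, changed by 0.48 while Carhsp1, which it resembles, passed at -0.74. Across the 45 pairs the log2 changes correlated at r = 0.94, a description, since a copy and its source share sequence and can share reads. At 0 h the pseudogene had the lower value in 45 of 45 pairs, with a median of 8.99% of the source gene's.

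**Figure D4:**
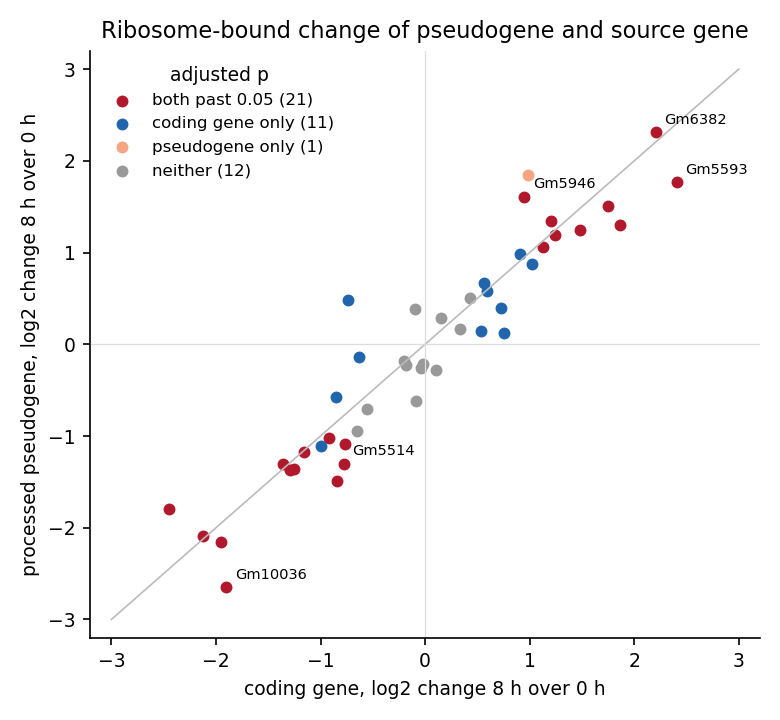
Log2 change on ribosomes at 8 h over 0 h of 45 processed pseudogenes (vertical axis) against that of the coding gene each resembles (horizontal axis), on the log2(value + 1) scale. Points lie along the diagonal (r = 0.94), and in the 21 pairs where both passed the direction was the same.

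Copies of a chromatin gene, of a cyclin gene and of an mRNA export gene were among those that rose. Gm6382 had 16.9 and 20.5 on ribosomes at 0 h, 35.5 and 33.3 at 2 h, 59.3 and 49.7 at 4 h, 72.5 and 77.2 at 6 h, and 90.6 and 102.9 at 8 h, each time above the one before it. Its log2 change at 8 h was 2.31 ± 0.23 (adjusted p = 8.76e-07), with a change beyond total RNA of 1.98. Rbbp7, which it resembles at 97.1% identity, had 1645 and 1849 at 8 h, against 336.6 and 422.5 at 0 h (2.21). Gm5593, on ribosomes alone and 99.2% identical to Ccnb1, had 14.6 and 16.1 at 8 h, against 3.58 and 4.01 at 0 h (1.77 ± 0.45, adjusted p = 0.00437). Ccnb1 itself, whose product drives entry into metaphase, had 474.1 and 549.2 at 8 h, against 103.1 and 88.0 at 0 h (2.41). Gm6563, a copy of the mRNA export gene Sarnp, had 11.4 and 12.8 at 8 h, against 1.92 and 3.47 at 0 h (1.85 ± 0.52, adjusted p = 0.00787). This call was lost without the second 8 h replicate (1.78) or the first 0 h replicate (1.55). Sarnp itself changed by 0.98 and did not pass.

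Gm5946, the copy of Bmi1, moved in opposite directions in the 2 kinds of RNA. On ribosomes it had 31.3 and 22.3 at 0 h, 44.8 and 35.2 at 2 h, 52.9 and 46.8 at 4 h, 60.8 and 62.4 at 6 h, and 80.3 and 85.7 at 8 h, so both 8 h libraries were above all others. The log2 change was 1.61 ± 0.25 (adjusted p = 5.89e-05). In total RNA it had 38.1 and 23.9 at 8 h, against 65.8 and 74.5 at 0 h, with no overlap (log2 change -1.19 ± 0.27, adjusted p = 0.0159). The fall in total RNA was lost without the second 8 h replicate (-0.86, adjusted p = 0.0926), the first 0 h replicate (-1.27, 0.106) or the second 0 h replicate (-1.10, 0.117). The change on ribosomes exceeded that in total RNA by 2.80 ± 0.37 (adjusted p = 9.74e-06). Bmi1 itself changed by 0.95 on ribosomes and by -0.16 in total RNA, where it did not pass.

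Many copies of genes of the translation machinery fell. Among the 45 pairs 9 source genes were taken as translation genes by symbol alone (Rpl, Rps, Eef, Eif, Naca and Pabpc). The list was drawn up after the values were seen. Of these pseudogenes 7 fell, 0 rose and 2 did not pass, while of the other 36 pseudogenes 5 fell and 10 rose. Of all genes on ribosomes 21.8% fell and 20.2% rose at 8 h, and the contrast was not tested. Gm10036, a copy of the ribosomal protein gene Rpl11, had 3.28 and 4.15 on ribosomes at 8 h, against 27.2 and 29.7 at 0 h (-2.65 ± 0.40, adjusted p = 6.02e-05), with no overlap, and Rpl11 changed by -1.90. Gm15500, a copy of Rpl5, had 4.75 and 3.88 at 8 h, against 19.5 and 26.2 at 0 h (-2.16 ± 0.37, adjusted p = 0.000181), and Rpl5 changed by -1.95. Gm9794, a copy of Rpl23, had 1.94 and 1.57 at 8 h, against 10.6 and 10.7 at 0 h (-2.09 ± 0.51, adjusted p = 0.00325), and Rpl23 changed by -2.12. Both Gm15500 and Gm9794 were in the ribosome-bound table alone.

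Others that fell were copies of Naca, Eef1a1 and Pabpc4, and each of these calls was lost when a library was left out. Gm6863 (Naca) changed by -1.49, and by -1.28 without the second 8 h replicate (adjusted p = 0.0551). Gm13456 (Eef1a1, a translation elongation factor) changed by -1.31, and by -1.09 and -1.06 without the second 8 h or first 0 h replicate (0.137 and 0.136). Gm10110 (Pabpc4, a poly(A) binding protein) changed by -1.02, and by -0.86, -1.19 and -0.88 without the first 8 h, second 8 h or first 0 h replicate (0.151, 0.0583 and 0.134). Gm5576 (Eif4a3) and Gm2223 (Eif2s3x) did not pass, at -1.11 and -0.57.

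Other copies that fell included those of a metabolic and a DNA methylation gene. Gm5514, the Ldhb copy, had 49.1 and 49.1 on ribosomes at 8 h, against 93.8 and 158.9 at 0 h (-1.30 ± 0.23, adjusted p = 0.000294), with a change beyond total RNA of -1.72. Gm5648, a copy of Uhrf1, which guides maintenance DNA methylation, had 15.5 and 12 at 8 h, against 39.1 and 34.0 at 0 h (-1.36 ± 0.33, adjusted p = 0.00352). Its change beyond total RNA, -1.68, was -1.51 without the second ribosome-bound 8 h replicate (adjusted p = 0.0597). Ldhb and Uhrf1 changed by -0.78 and -1.25 on ribosomes.

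Among coding members Gm813 fell most on ribosomes at 8 h. This gene, now Ftdc1, a ferritin-domain gene, had 527.0 and 581.9 on ribosomes at 0 h, 481.8 and 495.2 at 2 h, 548.2 and 569.7 at 4 h, 361.4 and 299.3 at 6 h, and 81.7 and 100.6 at 8 h. It stayed near its starting level until 4 h, and both 8 h libraries were below all others (log2 change -2.60 ± 0.15, adjusted p = 2.98e-09). In total RNA it had 108.7 and 85.6 at 8 h, against 210.4 and 198.6 at 0 h (-1.08 ± 0.17, adjusted p = 0.000982). The fall on ribosomes went beyond that in total RNA by -1.52 ± 0.23 (adjusted p = 3.79e-05).

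Gm15800, now Hectd4, a HECT-domain ubiquitin ligase, fell earlier. Its ribosome-bound values were 413.5 and 362.9 at 0 h, 260.6 and 196.2 at 2 h, 204.4 and 174.7 at 4 h, 176.9 and 158.0 at 6 h, and 135.3 and 192.8 at 8 h, with every later library below both at 0 h. The log2 change was -1.03 ± 0.19 at 4 h (adjusted p = 0.00136), the only member that fell at that time, and -1.26 ± 0.19 at 8 h (adjusted p = 5.85e-05). In total RNA it had 187.2 and 208.7 at 8 h, against 154.6 and 173.0 at 0 h (0.27, not passing), and the difference between the 2 kinds was -1.53 ± 0.25 (adjusted p = 8.82e-05).

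Gm17018 had 17.2 and 13.4 on ribosomes at 8 h, against 44.4 and 53.7 at 0 h (-1.62 ± 0.29, adjusted p = 0.000283), and its exons overlap Fbxw4 on the other strand. Gm11639 had 3.42 and 8.09 at 8 h, against 23.6 and 21.9 at 0 h (-1.91 ± 0.45, adjusted p = 0.00279), and overlaps Efcab3 on its own strand. Neither showed overlap between its 8 h and 0 h libraries on ribosomes, and for neither did the change beyond total RNA pass. Gm15698 (Elobl), the most abundant member, had 3113 and 2895 at 8 h, against 4253 and 3750 at 0 h (-0.41 ± 0.13, adjusted p = 0.0164). This was lost without the second 8 h replicate (-0.36, 0.0891) or the first 0 h replicate (-0.32, 0.0936). Gm4924 had 6.79 and 3.29 on ribosomes at 8 h, against 11.6 and 11.6 at 0 h. This fall passed, but not with a pseudocount of 5, with libraries centred on their medians or with a replicate block. It was also lost without the second 8 h, first 0 h or second 0 h replicate. The change on ribosomes less that in total RNA was -2.10 (adjusted p = 0.00818), a difference that also took in a rise in total RNA. That was lost without the second ribosome-bound 8 h replicate (-1.67, 0.0583) or the first total 8 h replicate (-1.75, 0.0512).

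Among coding members that rose, Gm15262, on the X chromosome, had 18.9 and 17.1 on ribosomes at 8 h, against 2.71 and 2.34 at 0 h (2.43 ± 0.49, adjusted p = 0.000804). The change of Gm15262 beyond total RNA did not pass. Gm4981, listed on ribosomes alone, is 90.6% identical to Duxf3, a copy of Dux, whose product switches on genes at zygotic genome activation. It had 21.6 and 12.9 at 8 h, against 2.44 and 2.87 at 0 h (2.28 ± 0.47, adjusted p = 0.00095). Gm7694, chosen after its values were seen, had 65.6 and 58.5 at 8 h, against 17.3 and 18.9 at 0 h (1.72 ± 0.26, adjusted p = 5.47e-05), with a change beyond total RNA of 2.03, and its exons overlap Nos1ap. In all 3 the 8 h libraries were above the 0 h ones. Gm19410 had 38.2 and 24.9 at 8 h, against 12.3 and 12.4 at 0 h (1.25 ± 0.32, adjusted p = 0.00453), which became 0.95 without the first 8 h replicate (0.0723). Its change beyond total RNA was 1.57.

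The PRAME-like family, a multicopy group with members expressed in oocytes that includes Oog1, counts 8 coding Gm members here, picked after their values were seen. All 8 were on ribosomes. At 8 h 2 rose, 2 fell and 4 did not pass, where 20.2% of all genes rose and 21.8% fell. Gm3259 had 25.1 and 27.5 at 8 h, against 10.5 and 9.29 at 0 h (1.32 ± 0.34, adjusted p = 0.00431), and Gm6205 had 43.2 and 48.1 at 8 h, against 24.2 and 13.8 at 0 h (1.27 ± 0.29, adjusted p = 0.00219). Both are 98.8% identical to C87414. The abundant Gm13084 had 496.7 and 370.3 at 8 h, against 704.8 and 688.5 at 0 h (-0.70 ± 0.14, adjusted p = 0.000934). Gm13023 had 974.0 and 658.0 at 8 h, against 1048 and 1183 at 0 h (-0.48 ± 0.18, adjusted p = 0.0396). It no longer passed with libraries centred on their medians (-0.41, 0.0681), or without the second 8 h replicate (-0.19, 0.466) or the second 0 h replicate (-0.39, 0.163). Gm10436, 98.8% identical to Oog1, changed by 0.01, Gm2042 by 0.10, Gm13089 by 0.59 and Gm13125 by -0.30, and none of these 4 passed. The low Gm13089 had 29.9 and 28.1 at 8 h, against 20.1 and 17.8 at 0 h.

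The most abundant of the long non-coding members rose on ribosomes. Gm1965, at chr6:89140994-89147388, had ribosome-bound values of 1032 and 694.4 at 0 h, 1378 and 1246 at 2 h, 1343 and 1719 at 4 h, 2086 and 2350 at 6 h, and 2774 and 2784 at 8 h. Both 8 h libraries were above all others and both 0 h libraries below all others. The log2 change was 1.71 ± 0.17 (adjusted p = 5.31e-07). In total RNA it had 2931 and 2911 at 8 h, against 2594 and 2539 at 0 h (0.19, not passing), and the change on ribosomes went beyond that by 1.53 ± 0.22 (adjusted p = 2.3e-05). Its longest open reading frame has 142 codons.

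Gm839, at chr6:89211165-89216237, is near Gm1965 and was among the most abundant in total RNA. It had 230.0 and 207.5 on ribosomes at 8 h, against 174.2 and 125.0 at 0 h (0.56 ± 0.19, adjusted p = 0.0245). It did not pass without the first 8 h replicate (0.49, adjusted p = 0.131), the second 8 h replicate (0.64, 0.0588) or the second 0 h replicate (0.32, 0.23). Gm11906, which shares exons with Gpr63, Ufl1 and C230012O17Rik, had 19.1 and 18.1 at 8 h, against 7.86 and 3.08 at 0 h (1.71 ± 0.46, adjusted p = 0.00661), and 1.15 without the second 0 h replicate (0.0792).

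All 5 members that changed in total RNA at 8 h also passed on ribosomes at 8 h, where 42.1% of all genes passed. The same overlap over all genes was not counted, so it is unknown whether this is particular to the members. The 5, of 63 members that passed on ribosomes, are Gm813 and Gm5946, described above, and 3 long non-coding genes. Gm42980 had 85.0 and 79.3 in total RNA at 0 h, 80.4 and 64.9 at 2 h, 42.6 and 73.5 at 4 h, 31.7 and 41.4 at 6 h, and 22.5 and 8.34 at 8 h, both below all others (log2 change -2.49 ± 0.34, adjusted p = 0.000301). On ribosomes it had 17.7 and 17.9 at 8 h, against 36.9 and 58.2 at 0 h (-1.33 ± 0.29, adjusted p = 0.00128). Gm13990 had 13.6 and 14.9 in total RNA at 8 h, against 43.3 and 32.8 at 0 h (-1.34 ± 0.29, adjusted p = 0.0108), and -1.15 without the first 0 h replicate (0.202). On ribosomes it had 6.44 and 6.77 at 8 h, against 22.3 and 23.4 at 0 h (-1.65 ± 0.36, adjusted p = 0.00141). For these 2 the changes in the 2 kinds of RNA had the same sign, and the difference between them did not pass.

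Gm26917, at chr17:39843013-39846341, ends 12 bases before Rn18s-rs5, which RefSeq annotates as a pseudogene related to 18S ribosomal RNA. In total RNA it had 2.61 and 4.59 at 0 h, 5.18 and 9.22 at 2 h, 27.2 and 36.2 at 4 h, 40.1 and 24.7 at 6 h, and 13.4 and 64.1 at 8 h, so that the 8 h replicates differed more than those of any other time. Its log2 change in total RNA at 6 h was 2.86, and this call was lost without the first or second 6 h replicate (2.52 and 3.2, adjusted p = 0.194 and 0.164) or the first or second 0 h replicate (2.54 and 3.17, 0.336 and 0.172). The change was 2.77 ± 0.53 at 8 h (adjusted p = 0.00415), and the 8 h value became 1.68 without the second 8 h replicate (0.0533) and 2.45 without the first 0 h replicate (0.0896). On ribosomes it had 16 and 23.4 at 8 h, against 3.04 and 7.02 at 0 h (1.84 ± 0.51, adjusted p = 0.0079), and 1.58 without the second 8 h replicate (0.0838) or 1.35 without the first 0 h replicate (0.0772).

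**Figure D5:**
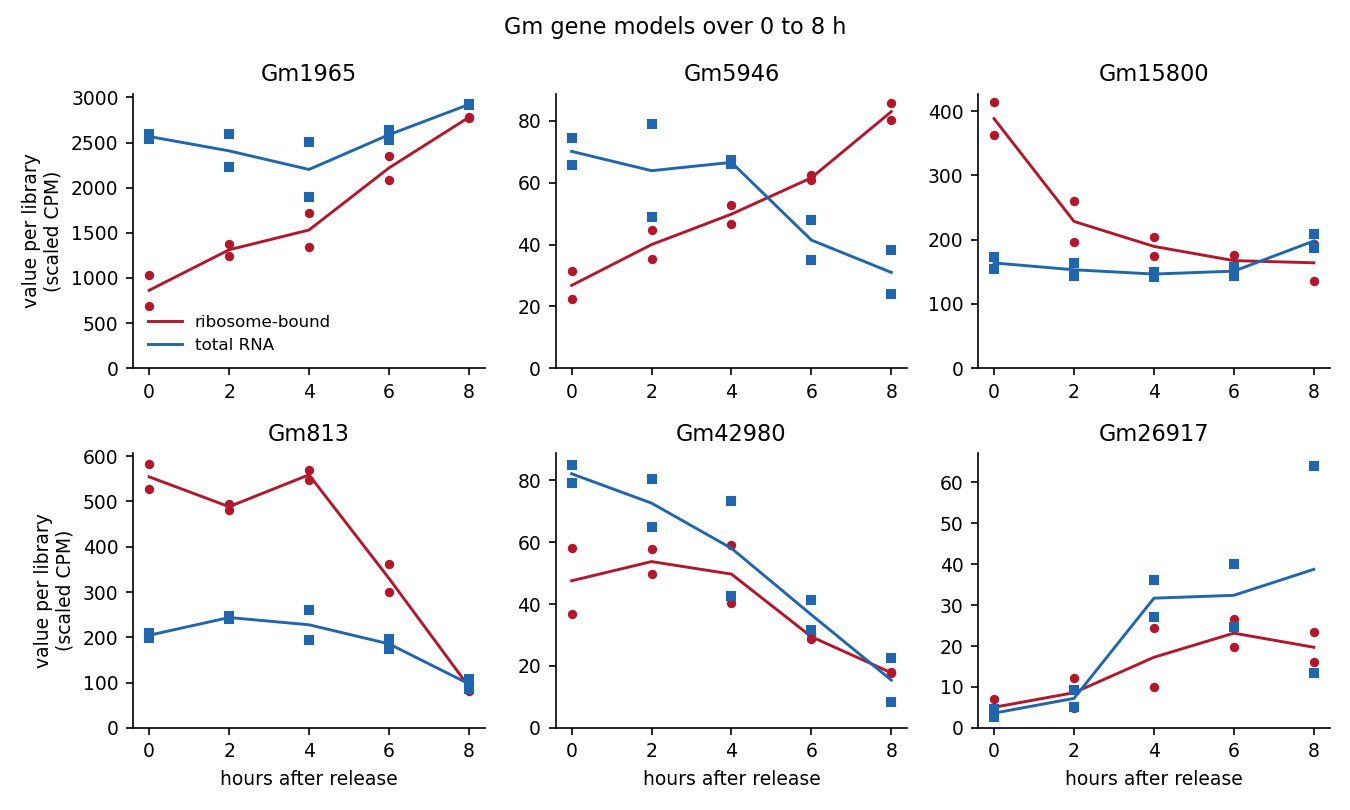
Scaled CPM of 6 Gm members (linear axes that start at 0) by hours after release, on ribosomes (red) and in total RNA (blue); points are libraries and lines join the means of 2. On ribosomes Gm1965 and Gm5946 end highest at 8 h (2774 and 2784, and 80.3 and 85.7) and Gm813 lowest (81.7 and 100.6), and Gm42980 ends lowest in total RNA (22.5 and 8.34).

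A single miRNA gene was among the members. Gm24245, in the ribosome-bound table alone, had 5.1 and 3.32 at 8 h, against 9.33 and 15 at 0 h (-1.32 ± 0.48, adjusted p = 0.0333), and did not pass without the second 8 h replicate (-1.07, 0.178) or the second 0 h replicate (-1.01, 0.192). The 4 members not found in the annotation, Gm6421, Gm26908, Gm28933 and Gm29595, were in both tables; 1 of the 4, Gm6421, rose on ribosomes at 8 h.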

How the data were processed

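The submitters' processing notes name HISAT2, HTSeq, SAMtools, FastQC, Trimmomatic 0.36, limma and edgeR as tools, and mm10 as the genome, with no settings. The authors deposited a signal per gene in scaled CPM, 1 table for each kind of RNA. Library totals ran from 968768 to 1052767. Every value was a whole multiple of its library's smallest step, within 0.01 of that step. Whether poly(A) RNA was selected is not given in the labels, and with poly(A) selection a change in tail length could alter recovery.

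Values were tested with limma 3.58.1 in R 4.3.3, on log2(value + 1), two-sided, keeping genes at 1 or more in at least 2 libraries, which kept every gene. All 5 times entered 1 model per kind of RNA, and the interaction used all 20 libraries and the 7346 genes in both tables. Errors of log2 changes are SE. Python 3.11.15 with pandas 2.3.3 and numpy 2.4.6 counted members. Classes came from GENCODE vM21 and names from RefSeq, both on GRCm38, identities from BLAST+ 2.17.0 and aligned windows from MAFFT 7.526. The test was checked on simulated data.

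The members and lists were chosen with earlier results of these data known. Members were named by rule: the 6 largest rises and falls on ribosomes and 4 in total RNA at 8 h among members that passed with a mean of at least 10 and no overlap, the 4 smallest p each way in the interaction, the 5 highest means per table, the highest members of a single table, and the extremes of ribosome over total level. Others, chosen after their values were seen, are the rest of the chromosome 6 run, Gm7145, Gm7694, Gm11545, Gm8801, Gm11906, the PRAME-like members other than Gm13023 and Gm13084, the 4 members not found in the annotation, and the copies Gm6863, Gm13456, Gm10110 and Gm5576. Replicate letters shared between groups were not treated as pairs: deviations of same-lettered libraries correlated at -0.107 to 0.115. Alternatives were other pseudocounts, filters, centring, a replicate block and leaving out each library. One copy of a translation gene is not reported here.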

Additional observations from a re-analysis of the deposited data

Results flagged for a closer look

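These results were picked out because the change on ribosomes at 8 h over 0 h differed from that in total RNA by a test of the difference itself (interaction in limma, adjusted p under 0.05). Of the 163 members measured in both kinds of RNA, 27 passed this test, 19 with a positive difference and 8 with a negative one. Of all genes, 11.6% passed with a positive difference and 9.43% with a negative one. Only members named by the rule or in the chromosome 6 run are listed here. Others that passed, such as Gm3259 and Gm6205, are left out. The rule chose members partly by this same test, so the counts of listed members are not rates. The difference was positive, with the change on ribosomes the higher, for 11 of the listed members. Gm5946 had a log2 difference of 2.80, Gm33962 and Gm44134 of 2.46 each, Gm5581 and Gm29106 of 2.29 each, and Gm6382 of 1.98. Gm6600 had 1.79, Gm19410 1.57, Gm1965 1.53, Gm44133 1.36 and Gm839 0.69. It was negative for 6: Gm4924 at -2.10, Gm5514 at -1.72, Gm5648 at -1.68, Gm15800 at -1.53, Gm813 at -1.52 and Gm10036 at -1.51.

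The difference for Gm10036 was lost with any 1 of the 8 ribosome-bound or total libraries of 0 and 8 h left out (adjusted p up to 0.117) and with libraries centred on their medians (0.0543). That for Gm839 was lost with any of them left out but the first ribosome-bound 0 h replicate (up to 0.223). That for Gm44133 was lost without the second ribosome-bound 8 h (0.0668), second ribosome-bound 0 h (0.107), first total 8 h (0.0712) or first total 0 h replicate (0.0549). Gm4924 was lost without the second ribosome-bound 8 h (0.0583) or first total 8 h replicate (0.0512), and Gm5648 without the second ribosome-bound 8 h replicate (0.0597). Listed granulosa and cumulus markers on ribosomes summed to 524.1 and 529.1 at 8 h and to 198.6 and 207.1 at 0 h, and their part in these results was not tested.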

How the results depend on the processing

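With 2 libraries per group, single libraries moved most counts of members that passed more than the other settings did. Leaving out 1 library gave 0 to 4 on ribosomes at 2 h, 6 to 13 at 4 h, 16 to 38 at 6 h and 37 to 64 at 8 h; in total RNA it gave 0 to 0 at 2 h and at 4 h, 0 to 1 at 6 h and 2 to 6 at 8 h; for the change beyond total RNA it gave 17 to 29. On ribosomes at 2 h 1 member passed with a pseudocount of 5 and 1 with only genes of mean at least 10, against 0. Under the other settings the counts stayed within 1.5 times. Without the highest member the share of the signal was 0.936% on ribosomes at 8 h and 0.880% at 0 h, and 1.17% in total RNA at 8 h and 1.21% at 0 h; without Gm1965, an alternative added after seeing the data, the long non-coding share on ribosomes was 0.232% at 8 h and 0.251% at 0 h. With a pseudocount of 5 the median ribosome over total level was -0.16 for all members at 0 h, -0.48 for long non-coding ones at 0 h and -0.08 for all at 8 h.

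Named members were compared in 978 cases under other settings, of which 956 kept direction and side of the threshold, 19 lost the call and 3 gained it. Of 984 cases with 1 library left out, 786 kept both, 177 lost the call and 14 gained it. In 7 the sign turned: on ribosomes at 8 h Gm9791 ran from -0.05 to 1.02, Gm10436 from -0.28 (and -0.10) to 0.30 and Gm2042 from -0.21 (and -0.02) to 0.41; beyond total RNA Gm26917 ran from -2.02 to 0.16 and Gm364 from -1.19 to 0.00. The cause was not tested. With the replicate letter as a block, 0, 14, 33 and 61 members passed on ribosomes at 2, 4, 6 and 8 h, 0, 0, 1 and 6 in total RNA, and 27 beyond total RNA. Leaving out the first ribosome-bound 4 h replicate, an alternative chosen after seeing the data, left 64 at 8 h. A planned count test on whole reads was not run. Low values limit what can be called: 100 of 180 members on ribosomes had means under 20.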
